A study of Homo sapiens with 6 samples.

Results

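The genes described here are HRAS and NRAS, which encode RAS GTPases, and 7 transcripts that report on the pathway below them, DUSP4, DUSP5, DUSP6, SPRY2, SPRY4, ETV4 and ETV5. These 9 genes were taken by name from the pathway, with earlier results of these data known, and each symbol matched 1 of the 63677 Ensembl identifiers in the count table. The cells were T24, an established line from a high-grade bladder carcinoma that is known to carry an activated HRAS, so all libraries of both groups share this allele and none of them represents a bladder tumour with wild-type RAS. The table holds 1 count per gene and gives no information on which HRAS allele a read came from.

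T24 cells were transfected by Lipofectamine with either a non-targeting siRNA or a pool of 2 siRNAs against RBM3, an RNA-binding protein, at 25 nM in medium without serum. After 4.5 h the medium was changed to full growth medium with serum, and the cells were harvested on the next day, so every library comes from cells returned to serum overnight. Polyadenylated RNA was sequenced as single-end reads of 75 bp from 3 control samples, numbered 1, 3 and 5, and 3 siRBM3 samples, numbered 3, 4 and 5. The labels do not say whether these samples were separate cultures, so the p-values measure the spread between these samples, which may be technical. In RNA from whole cultures, fewer cells that express a gene and less of its RNA per cell cannot be told apart.

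RAS proteins are switches that are active when bound to GTP, and they pass signals from growth factor receptors to the kinases RAF, MEK and ERK, the core of the MAPK pathway. Active ERK turns on transcription of its own brakes. DUSP phosphatases remove the activating phosphates from ERK, Sprouty (SPRY) proteins act upstream and limit activation of RAS and RAF, and the ETS factors ETV4 and ETV5 are transcription factors induced by ERK signalling. Levels of DUSP6, SPRY2, SPRY4, DUSP4, ETV4 and ETV5 are therefore widely read as a transcript measure of ERK output. Activating RAS mutations are a recurrent event in bladder cancer, and HRAS was isolated as a transforming gene from this cell line.

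Total counts ranged from 23603992 to 45098612 per library, with the highest total in siRBM3 replicate 3. Mitochondrial transcripts took 9.40% of the counts in that library and between 1.63% and 4.15% in the others. RBM3 was lower in every siRBM3 library, at 54.1, 90.1 and 58.4 CPM in replicates 3, 4 and 5 against 225, 368 and 301 CPM in control replicates 1, 3 and 5, where CPM is the usual depth-scaled count, with library sizes adjusted by the TMM factors of edgeR. Of the epithelial markers, KRT7, KRT8, KRT18 and KRT19 lay above 200 CPM in all libraries, EPCAM was between 4.90 and 6.87 CPM and CDH1 stayed below 1 CPM. Of the urothelial markers, the transcription factor genes PPARG (133 to 149 CPM) and GATA3 (9.31 to 14.3 CPM) were present, UPK2 was between 1.13 and 1.86 CPM, and UPK1A, UPK1B, UPK3A and KRT20 stayed below 1 CPM. The mesenchymal markers VIM (2168 to 2858 CPM) and CDH2 (160 to 189 CPM) were high. The blood and liver markers PTPRC, LYZ, HBB and ALB stayed below 0.2 CPM, and the endothelial marker CDH5 was between 27.2 and 40.4 CPM.

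None of the 9 genes was called between the groups at the thresholds of the study, a fold change of at least 1.5 and a false discovery rate (FDR) below 0.01, in the quasi-likelihood test of edgeR with Benjamini-Hochberg adjustment over the 15099 genes tested. The share of all genes called by this rule was 0%. RBM3, the silenced gene, was not called either, with a log2 fold change of -2.14 and an FDR of 0.0822. No gene had a smaller FDR, so 0 of 9 in this fit is no result about the members. DESeq2 called 0 of the 9 genes by the same rule, where 1.22% of the 13068 genes with an adjusted p were called. At an unadjusted p under 0.05, 1 member was higher, NRAS, and 1 was lower, ETV4, in siRBM3 cells, beside 6.56% of all genes higher and 6.58% lower. NRAS was also the only member with all siRBM3 libraries above all control libraries, a pattern of 9.98% of all genes, and ETV4 the only one with all of them below, a pattern of 9.93%. Of the 9 genes, 6 were lower by any amount, where 51.5% of all genes were lower. With 9 genes, a count of 1 in each direction is near these shares and is no result about the members as a group. limma-voom called 0 of them as well, and 0 of all 15099 genes.

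**Figure D1:**
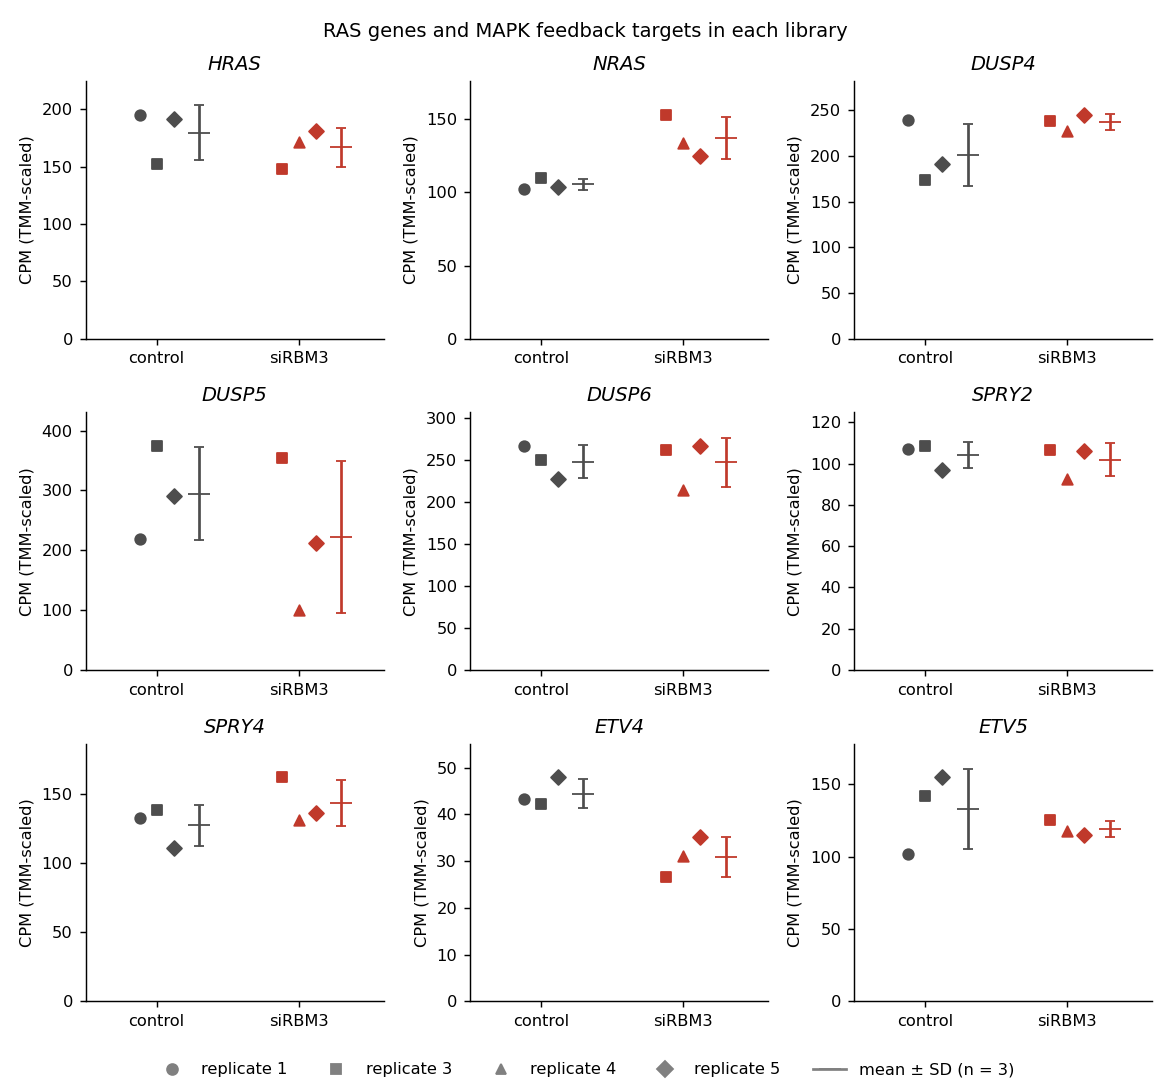
CPM after TMM scaling (y axes, from 0) of the 9 genes in each of the 3 control and 3 siRBM3 libraries, with symbols for the replicate number and bars for the mean ± SD of each group. The groups are apart for NRAS (102 to 110 against 125 to 153 CPM) and ETV4 (42.2 to 48.0 against 26.6 to 35.1 CPM), and overlap for the other members, with the widest spread for DUSP5.

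The sequences next to the start sites of the RAS genes are shown because NRAS was the member with all siRBM3 libraries above control and HRAS is the activated gene of this line. They are the 140 bases before each start in the RefSeq promoter table, which is on GRCh38.p14, matched to GRCh37 on the minus strand at chr1:115259393-115259532 for NRAS and chr11:535577-535716 for HRAS. No annotated exon lies in either stretch, and the RefSeq start of HRAS lies inside the GENCODE span of the gene given below. Capitals mark the letters CCGGAAG, a form of the site bound by ETS factors, searched on both strands.
NRAS: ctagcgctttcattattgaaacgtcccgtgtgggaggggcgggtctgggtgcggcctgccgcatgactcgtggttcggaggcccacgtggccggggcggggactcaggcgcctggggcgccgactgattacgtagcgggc
HRAS: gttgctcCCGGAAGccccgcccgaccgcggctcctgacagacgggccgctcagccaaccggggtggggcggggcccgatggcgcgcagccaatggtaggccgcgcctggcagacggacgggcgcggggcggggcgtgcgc
Both stretches were rich in G and C, which made up 68.6% of the NRAS bases and 79.3% of the HRAS bases. The ETS letters stood 133 to 127 bases before the HRAS start and were not found in the 250 bases before the NRAS start. They were present in 8.52% of the 35116 windows of 250 bases in the table. The AP-1 letters TGANTCA, with any base at N, occur in 6.57% of windows, and the CRE letters TGACGTCA in 1.65%. Neither was found before the start of any of the 5 members with an entry, HRAS, NRAS, DUSP6, SPRY2 and SPRY4. CCAAT, in 32.0% of windows, was found in HRAS (52 to 48 bases before the start) and in DUSP6 (46 to 42 bases before it). A match is a description of the letters and not a measured binding site.

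NRAS (ENSG00000213281) lies on chromosome 1 of GRCh37 from 115247090 to 115259392, on the minus strand, and encodes a RAS GTPase that differs from HRAS mainly in its C-terminal tail. Its level was 102, 110 and 104 CPM in the control samples 1, 3 and 5 against 153, 134 and 125 CPM in the siRBM3 samples 3, 4 and 5. The control libraries were nearly level, all siRBM3 libraries lay above them, and siRBM3 replicate 3 was the highest. The means were 105 ± 3.98 CPM in control and 137 ± 14.4 CPM in siRBM3 cells (SD, n = 3 each). The log2 fold change was 0.38 (SE 0.10, 95% interval 0.15 to 0.62), a fold change of 1.30. The adjusted p was 0.191 by edgeR and 0.0758 by DESeq2, both with Benjamini-Hochberg adjustment, so the difference did not pass the threshold. NRAS ranked 409 of 15099 genes by p. Without siRBM3 replicate 3, the library with the largest mitochondrial share, the log2 fold change was 0.30.

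HRAS (ENSG00000174775), the gene whose activated form defines T24, lies on chromosome 11 from 532242 to 537321 on the minus strand. It had 195, 152 and 192 CPM in the control samples 1, 3 and 5 against 148, 171 and 181 CPM in the siRBM3 samples 3, 4 and 5. In both groups replicate 3 was the lowest, and the ranges of the groups overlapped. The means were 180 ± 24.0 CPM in control and 167 ± 17.1 CPM in siRBM3 cells (SD, n = 3 each), with a log2 fold change of -0.11 (SE 0.13, adjusted p = 0.776 by edgeR with Benjamini-Hochberg adjustment). The 95% interval ran from -0.39 to 0.18 on the log2 scale, so a difference of 1.5-fold or more in either direction lay outside it. With single libraries left out the HRAS difference ran from -0.21 without control replicate 3 to -0.03 without siRBM3 replicate 3, and it was also smaller without control replicate 1 (-0.04) or 5 (-0.06) and larger without siRBM3 replicate 5 (-0.17). Less than 1% of the exon bases of HRAS (0.864%) overlap another annotated gene.

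The balance of the RAS transcripts was then read within each library, where it does not depend on the scaling between libraries. Per kilobase of exon, the level of NRAS was 0.295, 0.407 and 0.305 of that of HRAS in control replicates 1, 3 and 5, and 0.581, 0.439 and 0.387 in siRBM3 replicates 3, 4 and 5. HRAS was thus the more abundant transcript per length in all 6 libraries. The mean ratio was 0.335 ± 0.0619 in control and 0.469 ± 0.1002 in siRBM3 cells (SD, n = 3 each). The ranges overlapped, since control replicate 3 lay above siRBM3 replicate 5. On the log2 scale the ratio was higher by 0.48 in siRBM3 cells (exact permutation test, two-sided p = 0.2, where 3 samples against 3 cannot give less than 0.1), and it was higher by between 0.31 and 0.63 when single libraries were left out. A ratio within a library cannot say which of the transcripts differs.

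**Figure D2:**
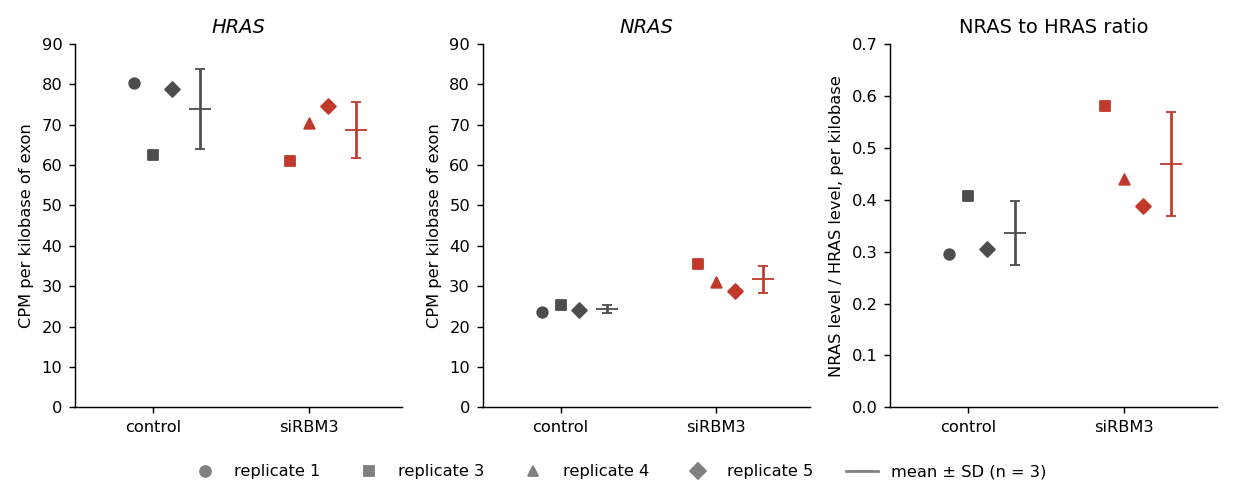
HRAS and NRAS levels in CPM per kilobase of exon (left and middle, same axis from 0) and the ratio of NRAS to HRAS per kilobase (right) in each library, with the mean ± SD of each group. HRAS lies between 60.9 and 80.3, NRAS between 23.7 and 35.4, and the ratio between 0.295 and 0.581, with control replicate 3 inside the siRBM3 range of the ratio.

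Among the phosphatases, DUSP6 is specific for ERK and resides in the cytoplasm, DUSP5 acts on ERK in the nucleus, and DUSP4 is a nuclear phosphatase that is induced by ERK and can also act on other MAP kinases. DUSP6 (ENSG00000139318, chromosome 12, 89741012 to 89746278, minus strand) had 266, 249 and 227 CPM in the control samples 1, 3 and 5 against 261, 214 and 266 CPM in the siRBM3 samples 3, 4 and 5. The groups covered nearly the same range, with means of 248 ± 19.5 and 247 ± 28.9 CPM (SD, n = 3 each). The log2 fold change was -0.0044 (SE 0.11, 95% interval -0.27 to 0.26) with adjusted p = 0.992 by edgeR with Benjamini-Hochberg adjustment. A long noncoding RNA of the opposite strand, which is not among the counted identifiers, overlaps 28.6% of the exon bases of DUSP6.

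DUSP4 (ENSG00000120875, chromosome 8, 29190581 to 29208201, minus strand) had 239, 174 and 191 CPM in the control samples 1, 3 and 5 against 239, 227 and 245 CPM in the siRBM3 samples 3, 4 and 5. The siRBM3 libraries lay close together and above control replicates 3 and 5, while control replicate 1 was level with them. The means were 202 ± 33.9 and 237 ± 9.08 CPM (SD, n = 3 each), and the log2 fold change was 0.23 (SE 0.13, 95% interval -0.05 to 0.52) with adjusted p = 0.472 by edgeR with Benjamini-Hochberg adjustment. Its size rested on control libraries, since it was 0.37 without control replicate 1 and 0.14 without control replicate 3.

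DUSP5 (ENSG00000138166, chromosome 10, 112257665 to 112271291, plus strand) was the most variable member. It had 219, 375 and 291 CPM in the control samples 1, 3 and 5 against 355, 100.0 and 212 CPM in the siRBM3 samples 3, 4 and 5. Within siRBM3 cells the highest library was 3.55 times the lowest, whereas for the other 8 members this ratio was between 1.08 and 1.32. The pooled SD of DUSP5 within groups was 0.71 on the log2 scale, larger than or equal to that of 95.8% of the genes tested. The means were 295 ± 78.0 and 222 ± 127.7 CPM (SD, n = 3 each), and the log2 fold change of -0.41 (SE 0.42) had a 95% interval of -1.38 to 0.57, with adjusted p = 0.732 by edgeR with Benjamini-Hochberg adjustment. The value moved with single libraries and was -0.06 without siRBM3 replicate 4, -0.20 without control replicate 3 and -0.92 without siRBM3 replicate 3. The interval thus held both no difference and a decrease of more than 1.5-fold.

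The Sprouty genes encode inhibitors that act between receptors and RAF. SPRY2 (ENSG00000136158, chromosome 13, 80910111 to 80915261, minus strand) had 107, 109 and 96.7 CPM in the control samples 1, 3 and 5 against 107, 92.6 and 106 CPM in the siRBM3 samples 3, 4 and 5. It had the narrowest spread of the 9 genes, with a highest library only 1.17 times the lowest over all 6 libraries. The log2 fold change was -0.03 (SE 0.10, 95% interval -0.26 to 0.20) and the FDR 0.922 in edgeR with Benjamini-Hochberg adjustment. SPRY4 (ENSG00000187678, chromosome 5, 141689992 to 141706020, minus strand) had 133, 139 and 111 CPM in the control samples 1, 3 and 5 against 162, 131 and 137 CPM in the siRBM3 samples 3, 4 and 5. Only siRBM3 replicate 3 stood above all control libraries. Its log2 fold change was 0.17 (SE 0.12, 95% interval -0.11 to 0.45) with adjusted p = 0.603 by edgeR with Benjamini-Hochberg adjustment, and it was 0.07 without siRBM3 replicate 3 and 0.08 without control replicate 5.

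ETV4 and ETV5 belong to the PEA3 group of ETS transcription factors. ETV4 (ENSG00000175832, chromosome 17, 41605212 to 41656988, minus strand) had 43.2, 42.2 and 48.0 CPM in the control samples 1, 3 and 5 against 26.6, 31.1 and 35.1 CPM in the siRBM3 samples 3, 4 and 5. The groups did not overlap, with all siRBM3 libraries the lower ones and siRBM3 replicate 3 the lowest. The means were 44.5 ± 3.10 and 31.0 ± 4.25 CPM (SD, n = 3 each). The log2 fold change was -0.52 (SE 0.13, 95% interval -0.82 to -0.23), a level 0.696 times that of control. With an adjusted p of 0.170 by edgeR and 0.0314 by DESeq2, both after Benjamini-Hochberg adjustment, ETV4 did not pass the FDR threshold in either tool, and it ranked 294 of 15099 genes by p. Without siRBM3 replicate 3 the log2 fold change was -0.42. DHX8, an RNA helicase gene on the opposite strand, overlaps 1.93% of the exon bases of ETV4, and its level went the other way, from 65.2 ± 8.07 to 83.3 ± 9.55 CPM (SD, n = 3 each; log2 fold change 0.35, SE 0.13).

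ETV5 (ENSG00000244405, chromosome 3, 185764103 to 185828107, minus strand) is closely related to ETV4 but did not show the same separation. It had 102, 142 and 155 CPM in the control samples 1, 3 and 5 against 125, 117 and 115 CPM in the siRBM3 samples 3, 4 and 5. The siRBM3 libraries lay inside the control range. The log2 fold change was -0.16 (SE 0.15, 95% interval -0.50 to 0.19) with adjusted p = 0.706 by edgeR with Benjamini-Hochberg adjustment. It ranged from -0.32 without control replicate 1, the lowest control library, to -0.03 without control replicate 5, the highest. DGKG, a diacylglycerol kinase gene on the same strand, overlaps 2.84% of the exon bases of ETV5 and was low, at 6.84 ± 0.734 CPM in control and 6.40 ± 0.229 CPM in siRBM3 cells (SD, n = 3 each). Whether the difference for ETV4 is larger than that for ETV5 was not tested.

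**Figure D3:**
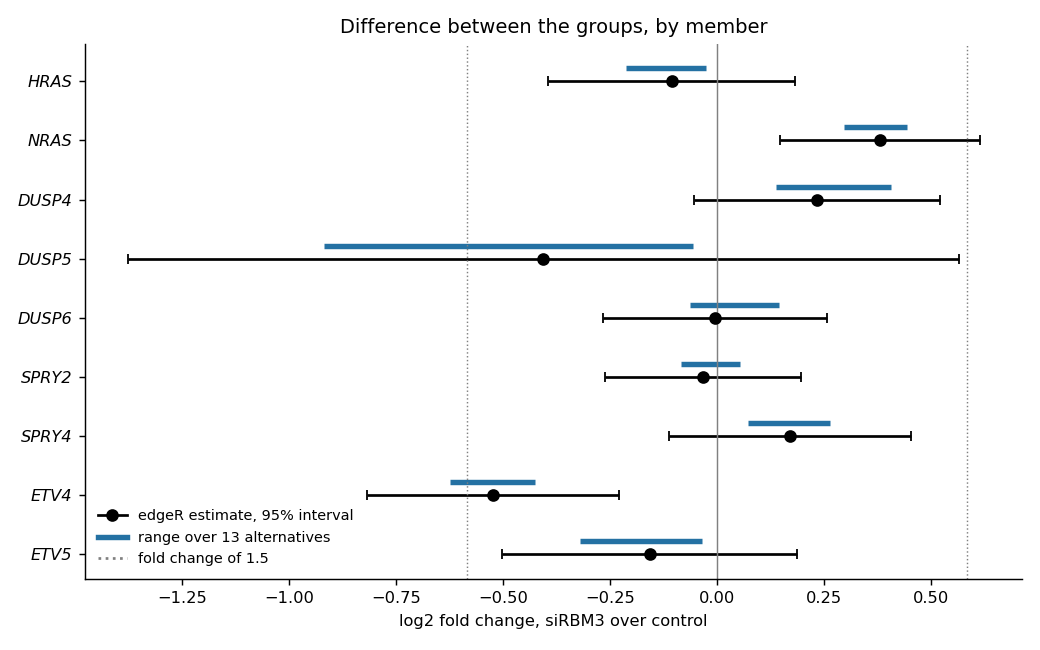
Log2 fold change of siRBM3 over control for each member (x axis), with the edgeR estimate and its 95% interval in black and the range over 13 alternative analyses in blue; dotted lines mark a fold change of 1.5. The intervals of NRAS (0.15 to 0.62) and ETV4 (-0.82 to -0.23) lie to one side of 0, those of the other 7 members span 0, and DUSP5 has the widest.

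Over the 7 feedback targets and ETS factors together, the median log2 fold change was -0.03, and over all 15099 genes it was -0.0083. The median size of a difference, without its sign, was 0.17 over all genes. By library, the median deviation of the 7 genes from their means was 0.06, 0.08 and -0.09 on the log2 scale in control replicates 1, 3 and 5, and 0.08, -0.15 and 0.02 in siRBM3 replicates 3, 4 and 5. The libraries of the groups were interleaved, with siRBM3 replicate 4 the lowest and siRBM3 replicate 3 the highest. The 9 genes together took between 0.121% and 0.149% of the counts of a library, again with the lowest share in siRBM3 replicate 4.

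The levels of the members were compared per kilobase of exon, with exon lengths from GENCODE, which may differ from the annotation that was counted. In control cells DUSP5 was the highest, at 116 ± 30.8 CPM per kilobase (SD, n = 3), followed by HRAS at 73.9 ± 9.89 and DUSP6 at 64.2 ± 5.05. SPRY2 (32.4 ± 2.02), DUSP4 (27.7 ± 4.66), NRAS (24.4 ± 0.920), ETV5 (23.0 ± 4.83) and SPRY4 (19.4 ± 2.24 CPM per kilobase) formed a middle group, and ETV4 was the lowest at 12.6 ± 0.882. All 9 genes were well expressed, with ETV4 above 76.4% and DUSP5 above 98.1% of the 14747 tested genes that have a length. In this order the control libraries of DUSP5 and HRAS did not overlap, nor did those of DUSP6 and SPRY2 or of SPRY4 and ETV4, whereas HRAS and DUSP6 overlapped, as did each pair of neighbours from SPRY2 to SPRY4.

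In siRBM3 cells the order kept DUSP5, HRAS and DUSP6 at the top and ETV4 at the bottom. DUSP5 had 87.7 ± 50.4 CPM per kilobase, HRAS 68.7 ± 7.03 and DUSP6 64.0 ± 7.50 (SD, n = 3), and all 3 overlapped, with DUSP5 ranging from 39.4 to 139.97. DUSP4 (32.6 ± 1.25), NRAS (31.8 ± 3.32) and SPRY2 (31.7 ± 2.49) overlapped each other, whereas NRAS lay below SPRY2 without overlap in control cells. SPRY4 (21.9 ± 2.54) and ETV5 (20.6 ± 0.944) also overlapped, and ETV4 was at 8.81 ± 1.21 CPM per kilobase, with no overlap with ETV5.

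**Figure D4:**
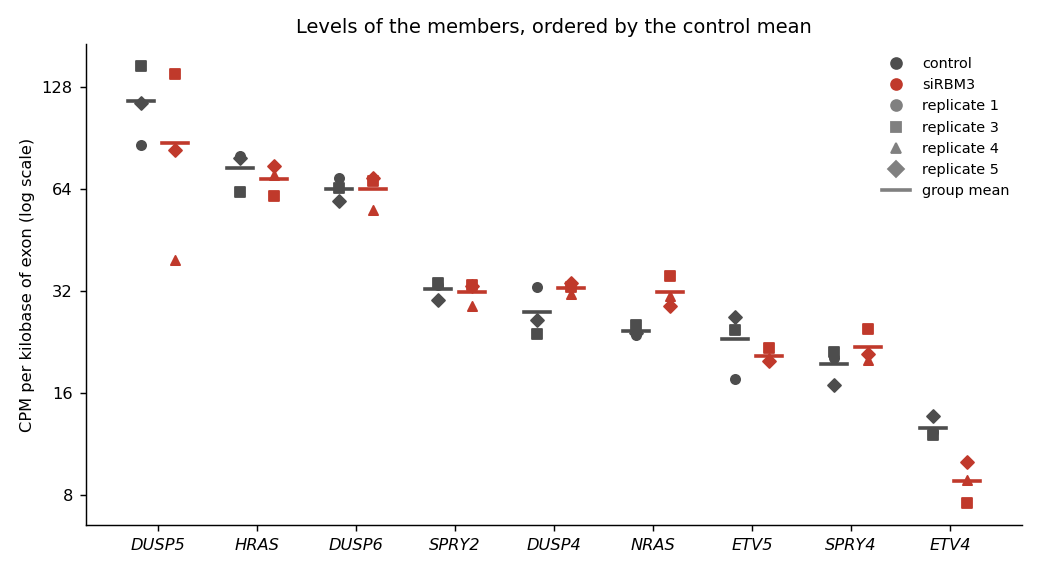
Level of each member in CPM per kilobase of exon (y axis, log scale) in each control (grey) and siRBM3 (red) library, ordered by the control mean, with lines for group means. DUSP5, HRAS and DUSP6 lead, ETV4 is the lowest at 12.6 in control and 8.81 in siRBM3 cells, and DUSP5 in siRBM3 replicate 4 (39.4) stands apart from its other libraries.

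The likeness of expression patterns was described by the root mean square difference of log2 CPM, centred on each gene's mean over the 6 libraries. Among the members the most alike pair was DUSP6 and SPRY2, with a difference of 0.051, and the least alike was DUSP4 and DUSP5, with 0.74. This measure also depends on how far each gene deviates from its own mean. The root mean square deviations of DUSP6 (0.12) and SPRY2 (0.087) were the smallest of the members. Among the 14747 tested genes that matched GENCODE, those most like NRAS were PLXND1 (0.037) and APH1B (0.039). Those most like HRAS were DYNC2I2 (0.015) and CCM2 (0.024). DOHH (0.039) and POP7 (0.045) were closest to ETV4, and AZI2 and NT5C (0.026 each) to ETV5. For DUSP5, whose own deviation of 0.64 was the largest of the members, the nearest were SGK1 and ADAMTS17 at 0.17 each. For DUSP4 the nearest were ZFP82 (0.048) and the unnamed gene ENSG00000256894 (0.049), and for DUSP6 they were FAM53A (0.028) and FKBP9P1 (0.030). SPRY2 was closest to TRAF5 (0.033) and HYKK (0.035), and SPRY4 to ATP8B1 (0.016) and ARSJ (0.019). With 6 libraries and 14747 genes such matches describe these libraries only.

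Genes around the members were then read from 6 lists with 71 entries, of which 67 could be tested. None of the 67 was called in edgeR by the thresholds above. DESeq2 called 2, FOSL1 and EPHA4, beside 1.22% of all genes with an adjusted p. At an unadjusted p under 0.05, 9 were higher and 12 were lower in siRBM3 cells, beside 6.56% and 6.58% of all genes. Of the 12 lower genes, 9 belonged to 1 list, the other ERK output transcripts.

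Of 17 genes of the cascade from receptor adaptors to ERK, 11 were higher and 6 lower, with a median log2 fold change of 0.01. The RAS exchange factor SOS1 (0.30, SE 0.12) and the RAS relative MRAS (0.51, SE 0.21) were higher, and MAP2K1, which encodes the ERK kinase MEK1, was lower (-0.28, SE 0.09), each at an unadjusted p under 0.05 and with no overlap between the groups. The FDR of these 3 genes in edgeR with Benjamini-Hochberg adjustment was between 0.272 and 0.342. Over all genes, 9.98% lay above control and 9.93% below it without overlap between the groups. In MAP2K1, 20.5% of the exon bases overlap another counted gene, and MRAS lay between 3.21 and 5.51 CPM in every library. Among 10 brakes on RAS, 8 were higher and the median was 0.14. NF1, the GTPase-activating protein neurofibromin, had 112, 132 and 115 CPM in the control samples 1, 3 and 5 against 181, 147 and 163 CPM in the siRBM3 samples 3, 4 and 5. Its log2 fold change was 0.45 (SE 0.11), and the adjusted p was 0.170 by edgeR and 0.0438 by DESeq2 after Benjamini-Hochberg adjustment. RASA3, another GTPase-activating protein, was higher by 0.30 (SE 0.09, FDR 0.229 in edgeR). Of 9 genes that process and transport RAS proteins, 4 were higher and 5 lower, and only LYPLA2, a thioesterase, was under an unadjusted p of 0.05 (0.25, SE 0.10).

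The relatives of the feedback members were mixed. Of 8 tested DUSP and SPRY relatives, 5 were higher and 3 lower. DUSP1, an immediate early phosphatase, had a log2 fold change of -0.41 (SE 0.13) and SPRY1 one of 0.66 (SE 0.26), although SPRY1 lay below 10 CPM in every library. Of 11 tested ETS relatives, 4 were higher and 7 lower, with a median of -0.01. ELK1, an ETS factor phosphorylated by ERK, had 61.1, 58.4 and 55.1 CPM in the control samples 1, 3 and 5 against 39.1, 45.6 and 42.6 CPM in the siRBM3 samples 3, 4 and 5, so that the groups did not overlap. GABPA, the DNA-binding subunit of GABP, stood on the other side, with 22.5, 21.4 and 20.03 CPM in control and 32.7, 29.2 and 33.2 CPM in the siRBM3 samples 3, 4 and 5. The log2 fold changes were -0.46 (SE 0.10, FDR 0.151) for ELK1 and 0.57 (SE 0.11, FDR 0.118) for GABPA in edgeR with Benjamini-Hochberg adjustment. DESeq2 gave adjusted p values of 0.0205 for ELK1 and 0.0027 for GABPA, and called neither. ELK1 did not pass the FDR threshold, whereas GABPA passed it but its difference was less than 1.5-fold. In GABPA, 12.1% of the exon bases overlap another counted gene. ELK3 was higher by 0.24 (SE 0.10) at an unadjusted p under 0.05.

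The other ERK output transcripts differed from the members in their counts. Of 12 tested genes, 11 were lower in siRBM3 cells, 9 of them at an unadjusted p under 0.05, where 51.5% of all genes were lower and 6.58% were lower at that p, with a median log2 fold change of -0.47. The list had been written with earlier results on these libraries known and holds CCND1, which the study followed up, so the count is no independent evidence of direction, and the difference from the members was not tested. FOSL1, which encodes the AP-1 subunit FRA1, had 194, 276 and 275 CPM in the control samples 1, 3 and 5 against 132, 139 and 139 CPM in the siRBM3 samples 3, 4 and 5. The siRBM3 libraries were nearly level and all below the control libraries. The log2 fold change was -0.86 (SE 0.14), and the adjusted p was 0.0851 by edgeR and 0.000121 by DESeq2 after Benjamini-Hochberg adjustment. The ephrin receptor EPHA2 (-0.42, SE 0.10), the cytokine LIF (-0.52, SE 0.11), PHLDA1 (-0.35, SE 0.12), cyclin D1 gene CCND1 (-0.39, SE 0.13) and the urokinase receptor gene PLAUR (-0.27, SE 0.12) also showed no overlap between the groups. Another counted gene overlaps 10.4% of the exon bases of CCND1 and 9.35% of those of PHLDA1. EREG, AREG and MAFF were lower at an unadjusted p under 0.05 with overlapping groups, and AREG lay below 2 CPM in every library. EPHA4 was the exception, with 13.5, 12.7 and 15.1 CPM in control and 22.5, 18.4 and 24.7 CPM in the siRBM3 samples 3, 4 and 5. Its log2 fold change was 0.67 (SE 0.15, FDR 0.151 in edgeR and 0.0082 in DESeq2, both after Benjamini-Hochberg adjustment).

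The number of these transcripts that passed the unadjusted threshold depended on single libraries. The number of lower genes was 4 without control replicate 3 or siRBM3 replicate 5, and 5 without control replicate 5 or siRBM3 replicate 4. It was 8 without siRBM3 replicate 3 and 10 without control replicate 1. In each case 11 of 12 stayed lower, and the median stayed between -0.52 and -0.39. The number of all genes under that p, in either direction, moved as well. With all libraries it was 1983 of 15099. It was 1732, 1418 and 2466 without control replicates 3, 5 and 1, and 1498, 1515 and 1604 without siRBM3 replicates 3, 4 and 5.

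**Figure D5:**
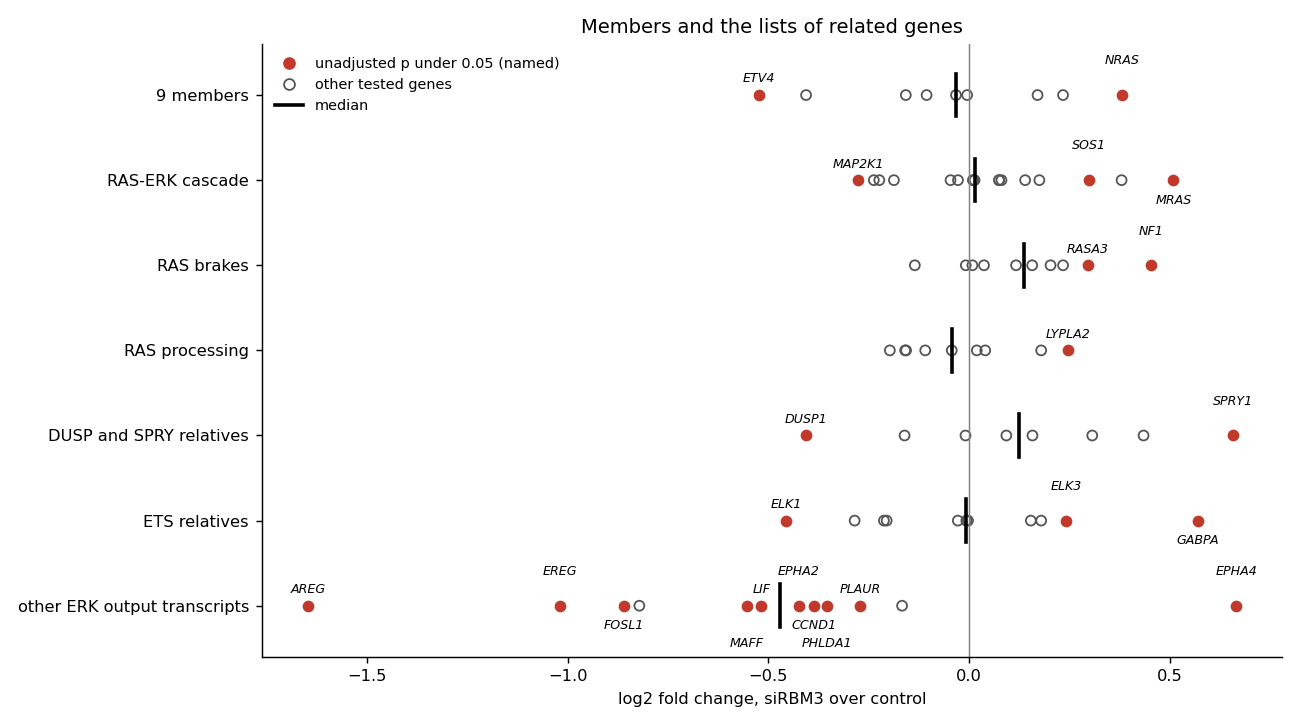
Log2 fold change of siRBM3 over control (x axis) for the 9 members and the tested genes of the 6 lists (rows), with filled red points and names for genes under an unadjusted p of 0.05, open points for the others and a black bar for the median of each row. The medians lie between -0.04 and 0.14 except for the other ERK output transcripts, at -0.47.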

How the data were processed

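RNA-sequencing of 3 control and 3 siRBM3 samples of T24 cells was analysed from the deposited table, whose values are raw counts per Ensembl gene, not normalized. The authors trimmed reads with BBDuk, aligned them to hg19/GRCh37 with STAR 2.5.2a, marked duplicates with Picard and counted with featureCounts; the sources used here do not give the annotation release, the strand setting or the treatment of marked duplicates. Counts of genes that overlap another gene on either strand are therefore uncertain. Of 63677 identifiers, 55665 were matched to GENCODE v44 symbols and exon lengths on GRCh37, and DUSP14 was not matched.

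Genes were kept by filterByExpr (minimum count 10, minimum total 15), scaled by TMM and tested with the quasi-likelihood method of edgeR 4.0.16 (robust, with no covariate beside the siRNA). Benjamini-Hochberg adjustment ran over 15099 genes. Standard errors were derived from the fold change and the F statistic, and intervals from the t distribution with the fitted degrees of freedom. DESeq2 1.42.0, the tool of the study, and limma 3.58.1 (voom) were alternatives, with RLE factors, library size only, other filters, a replicate block and each library left out. R 4.3.3 and Python 3.11.15 were used. The scripts were tested on simulated data with known answers. Replicates of a group differed by more than sampling noise (chi-square per degree of freedom from 27.7 to 141).

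The members and lists were chosen with earlier results of these data known. The genes named were all 9 members, RBM3, the genes of each list under an unadjusted p of 0.05, the 2 genes closest in pattern to each member, genes whose exons overlap a member, and markers of cell type.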

Additional observations from a re-analysis of the deposited data

How the results depend on the processing

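Of 117 alternative values for the 9 members (13 each), 110 kept the direction and the side of the thresholds, 0 passed them and 7 changed sign. The 7 belonged to members near 0. DUSP6 was 0.0047 without a filter on low counts, 0.15 with the replicate block, and 0.049, 0.00027 and 0.090 without control replicate 1, control replicate 3 and siRBM3 replicate 4, within a range of -0.064 to 0.090 over single libraries left out. SPRY2 was 0.054 with the replicate block and 0.032 without siRBM3 replicate 4, within a range of -0.084 to 0.032. By the thresholds of the study the number of members called was 0 under every alternative run. Over all genes the number called was also 0 with limma-voom, RLE factors, library size only and a mean of at least 20 counts. It was 0 as well with each library left out, except for 1 gene without control replicate 1. Where 0 genes were called over all genes, 0 members was fixed for any set of genes. In edgeR with all libraries, the filter and no block, the number of members called was also 0 at an FDR of 0.05 or 0.1 with no fold threshold. The smallest FDR of any gene in that fit was 0.0822, so 0 at an FDR of 0.05 was fixed for any set of genes. In DESeq2 the adjusted p of NRAS was 0.0758. ETV4 was under an FDR of 0.05 without a filter (0.0167), with the block (0.0129) and in DESeq2 (0.0314). NRAS stayed between 0.30 and 0.44 (FDR 0.0513 to 0.473) and ETV4 between -0.62 and -0.42 (FDR 0.0129 to 0.456), and both kept an unadjusted p under 0.05 in all 13. The number of members higher at that p was 1, but 2 without a filter and 3 with the replicate block, and it ranged from 1 to 2 with each library left out. The number lower was 1, but 2 with the block, and from 1 to 2 with each library left out. The number of all genes under that p, in either direction, moved too. It was 1983 of 15099 with the filter and no block, 2836 of 30090 without a filter and 3745 of 15099 with the block. With each library left out it ran from 1418 of 15423 to 2466 of 15341. The median of the 7 targets was between -0.08 and 0.05. The numbers 3 and 5 are shared by both groups, but nothing in the labels pairs these samples. Deviations from the group means correlated at 0.51 for the replicates numbered 3 and at 0.09 for those numbered 5. The block left 1 residual degree of freedom and gave 336 calls over all genes against 0 without it. With the block, DUSP4 had a log2 fold change of 0.41 (FDR 0.0401), and the NRAS to HRAS ratio within the shared numbers was higher by 0.43. Over all genes, where edgeR called 0, DESeq2 called 159 and edgeR without a filter 279. The list of other ERK output transcripts was rerun under the same alternatives after its count was seen, with 4 to 10 genes lower at the unadjusted threshold. The 10 came with the replicate block and without control replicate 1. In these fits 3745 of 15099 and 2466 of 15341 genes passed that threshold in either direction. The members had at least 788 counts in every library, and the part of depth in the missing calls was not tested.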
